A study of Caenorhabditis elegans with 72 samples.

Results

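The comparison described here sets nfki-1; npr-1 double mutants of Caenorhabditis elegans against npr-1 animals, which carry the same npr-1 mutation with nfki-1 intact. Every gene with a level of at least 1 FPKM, a count of sequenced fragments scaled to transcript length and to library size, in either genotype was taken as a member. This gave 13933 genes of the 46624 in the deposited table. The double mutants are called nfki-1 mutants below. RNA was taken from whole animals at the late L4 stage, the last larval stage, that had grown on OP50 bacteria. The labels list 18 samples of nfki-1; npr-1 and 18 samples of npr-1, each on the strain background labelled AX204, and they name no allele of either gene. The same study also profiled malt-1; npr-1 and ilc-17.1; npr-1 animals, with 18 samples each. The study's methods count fewer biological replicates per genotype than the labels list samples, so the samples of a genotype are not all separate cultures. Animals from 8 to 10 plates were combined in each replicate, so no value belongs to a single animal or cell type.

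Interleukin-17 is a secreted cytokine best known from mammalian immunity. In C. elegans the pathway acts in the nervous system, where it sets how strongly oxygen-sensing circuits respond. The ligand ILC-17.1 acts through the receptor subunits ILCR-1 and ILCR-2, the adapter ACTL-1, the IRAK-like kinase PIK-1, the paracaspase MALT-1 and NFKI-1, a nuclear protein related to mammalian atypical IkB proteins that act with transcription factors. The npr-1 gene encodes a neuropeptide receptor that dampens oxygen responses, and its loss makes these responses visible in the laboratory strain. The question of the comparison is which transcripts depend on NFKI-1 in that background.

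Each genotype has 1 pooled FPKM in this comparison. There are 0 columns of values for single samples, so no SD, confidence interval or p-value could be computed from the values, the sequencing depth is unknown, and every ratio below is a description of 2 pooled estimates. Ratios are given as log2 of the FPKM in nfki-1 mutants over that in npr-1 animals, with no pseudocount, and a positive value means higher in nfki-1 mutants. A gene is counted as higher or lower when the ratio reached 1.5-fold, which is 0.58 on the log2 scale. Both genotypes are listed at 0 for 26742 genes, 3553 of them protein-coding, and these include genes that every worm uses, such as the pharyngeal myosin genes myo-1 and myo-2, so a listed 0 is not read as absence. Because the tissue is the whole animal, fewer cells of a type and less RNA per cell cannot be told apart.

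The mutated gene was checked first. The level of nfki-1 (WBGene00007877, chromosome X, 15355238 to 15363861) was 8.94 FPKM in nfki-1 mutants, against 24.1 FPKM in npr-1 animals, a log2 ratio of -1.43. Its transcript was therefore reduced but still counted. The deposited locus is shared with a second gene, the non-coding RNA C33A11.5, which was listed at 0 in nfki-1 mutants, against 24.7 FPKM in npr-1 animals, and how reads were divided between both is not known. In the other mutants the log2 ratio of nfki-1 over npr-1 animals was -0.41 for malt-1; npr-1 and -0.05 for ilc-17.1; npr-1.

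The other pathway genes differed little. The receptor gene ilcr-2 had 32.5 FPKM in nfki-1 mutants, against 27.5 FPKM in npr-1 animals (log2 ratio 0.24), and its partner ilcr-1 had 7.74 FPKM, against 7.03 FPKM in npr-1 animals (0.14). The adapter gene actl-1 had 6.09 FPKM in nfki-1 mutants and 6.69 FPKM in npr-1 animals (-0.14). The kinase gene pik-1 had 9.79 FPKM in nfki-1 mutants and 10.1 FPKM in npr-1 animals (-0.05). All 4 therefore stayed within 1.5-fold. The paracaspase gene malt-1 was at 6.36 FPKM in nfki-1 mutants and 6.54 FPKM in npr-1 animals (-0.04). Both the ligand gene ilc-17.1, at 0.222 FPKM in nfki-1 mutants and 0.313 FPKM in npr-1 animals, and npr-1 itself, at 0.67 FPKM in nfki-1 mutants and 0.563 FPKM in npr-1 animals, were under 1 FPKM in both genotypes and are not members. Of further genes listed with the pathway, tir-1, the SARM adapter upstream of the p38 kinase, had a log2 ratio of 0.07. The histone acetyltransferase gene cbp-1 stood at 27.9 FPKM in nfki-1 mutants and 20.4 FPKM in npr-1 animals (0.45).

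Across all members, more genes were higher than lower in nfki-1 mutants. A ratio could be formed for 13378 of the 13933 members, since 254 were listed at 0 in nfki-1 mutants and 301 at 0 in npr-1 animals. Of these 13378 genes, 1849 were 1.5-fold or more higher in nfki-1 mutants (13.8%) and 659 were 1.5-fold or more lower (4.93%), while 10870 lay in between. By level, 12762 members reached 1 FPKM in both genotypes, 685 only in nfki-1 mutants and 486 only in npr-1 animals. Genes that reached it in a single genotype are members only through the side where they are higher. At 2-fold, 562 genes were higher (4.2%) and 270 lower (2.02%). The median log2 ratio was 0.02, with quartiles at -0.19 and 0.31, so the larger number of higher genes came from a longer upper side of the distribution and not from a shifted centre. Protein-coding genes made up 11978 members, and 1382 of the 11955 with a ratio were higher and 488 lower, with a median of 0.00.

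**Figure D1:**
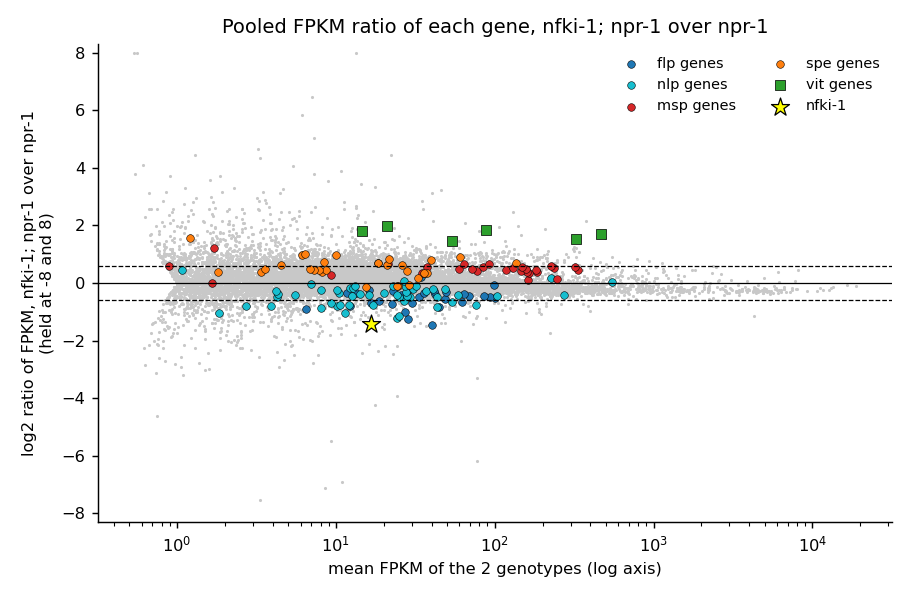
Each point is 1 gene, with the mean FPKM of both genotypes on a log axis and the log2 ratio of nfki-1; npr-1 over npr-1 on the vertical axis, held at -8 and 8. The dashed lines mark 1.5-fold. All 6 vit genes lie above the upper line and all 29 msp genes above 0, while 76 of the 82 flp and nlp genes lie below 0, and nfki-1 stands at -1.43.

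Neuropeptide genes were lower as a group. The flp genes encode FMRFamide-like peptides and the nlp genes encode neuropeptide-like proteins, the peptide signals that neurons release from dense-core vesicles. Of 30 flp genes with a ratio, 29 were below 0 and 11 were 1.5-fold or more lower, with none 1.5-fold higher, and the median log2 ratio was -0.46. Among 52 nlp genes, 47 were below 0, 16 were 1.5-fold or more lower and 1 was higher, with a median of -0.41. These are the lowest and the next lowest medians of 142 families of protein-coding genes that share a name prefix and have at least 8 members with a ratio. The whole set of 13378 genes had a median of 0.02 and 4.93% lower genes. The flp and nlp genes together summed to 2996 FPKM in nfki-1 mutants, against 3779 FPKM in npr-1 animals.

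Within the flp family, the largest difference was in flp-8, with 21.6 FPKM in nfki-1 mutants, against 59.3 FPKM in npr-1 animals (log2 ratio -1.46). It was followed by flp-32, with 16.9 FPKM in nfki-1 mutants, against 40.2 FPKM in npr-1 animals (-1.25). The gene flp-21, whose peptide is a ligand of the NPR-1 receptor that all these animals lack, had 18 FPKM in nfki-1 mutants, against 36.4 FPKM in npr-1 animals (-1.01). By contrast, flp-18, which also encodes NPR-1 ligands, was within 1.5-fold, at 36.4 FPKM in nfki-1 mutants and 47.5 FPKM in npr-1 animals (-0.38). A lower level was also seen in flp-25, at 4.52 FPKM in nfki-1 mutants and 8.36 FPKM in npr-1 animals (-0.89). The 3 most abundant members differed less. The level of flp-28 was 96.3 FPKM in nfki-1 mutants and 101 FPKM in npr-1 animals (-0.07). The level of flp-14, 82.2 FPKM in nfki-1 mutants, was 1.45-fold lower than in npr-1 animals (-0.53), and that of flp-24, 78.1 FPKM in nfki-1 mutants, was 1.38-fold lower (-0.47). The sole flp gene above 0 was flp-10, at 36.8 FPKM in nfki-1 mutants and 32.1 FPKM in npr-1 animals (0.20).

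Among the nlp genes, nlp-51 had 14.5 FPKM in nfki-1 mutants, against 33.8 FPKM in npr-1 animals (log2 ratio -1.22). The level of nlp-46 was 15.5 FPKM in nfki-1 mutants, against 34.2 FPKM in npr-1 animals (-1.15). Of the lower-expressed members, nlp-63 had 1.2 FPKM in nfki-1 mutants and 2.48 FPKM in npr-1 animals (-1.05), and nlp-56 had 7.39 FPKM in nfki-1 mutants and 15.3 FPKM in npr-1 animals (-1.05). The difference thus spanned genes at low and at moderate levels. The most abundant members differed less. The level of nlp-36 was 557 FPKM in nfki-1 mutants and 543 FPKM in npr-1 animals (0.04), and that of nlp-31, an antimicrobial peptide gene of the epidermis, was 238 FPKM and 212 FPKM in npr-1 animals (0.16). The gene nlp-40, which encodes an intestinal peptide that drives defecation, was 1.32-fold lower than the 311 FPKM of npr-1 animals (-0.40). Of the 5 nlp genes above 0, only nlp-4 was past 1.5-fold, with 22.8 FPKM in nfki-1 mutants, against 14 FPKM in npr-1 animals (0.71).

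The insulin-like peptide genes were past 1.5-fold in both directions. Of 23 ins genes with a ratio, 10 were above 0 and 13 below, with a median of -0.14. At 1.5-fold, 6 were higher (26.1%, against 13.8% of all genes) and 5 lower (21.7%, against 4.93% of all genes). The higher members were mostly scarce. The level of ins-16 was 2.21 FPKM in nfki-1 mutants, against 0.314 FPKM in npr-1 animals (log2 ratio 2.81), and ins-20 was at 1.32 FPKM in nfki-1 mutants, against 0.336 FPKM in npr-1 animals (1.97). Both are members only through their level in nfki-1 mutants. The lower members included ins-28, at 9.65 FPKM in nfki-1 mutants, against 22 FPKM in npr-1 animals (-1.19), and ins-27, the most abundant member, at 99.1 FPKM in nfki-1 mutants, against 157 FPKM in npr-1 animals (-0.67). The median of this family moved to -0.25 when members had to reach 5 FPKM and to 0.10 when no minimum was set.

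The enzymes that mature neuropeptides were lower in part. The genes for both steps of peptide amidation were 1.5-fold or more lower. The level of pgal-1 was 54.6 FPKM in nfki-1 mutants, against 85.4 FPKM in npr-1 animals (log2 ratio -0.65), and that of pghm-1 was 31.7 FPKM in nfki-1 mutants, against 49 FPKM in npr-1 animals (-0.63). Next came sbt-1, the chaperone of the proprotein convertase, with 76.6 FPKM in nfki-1 mutants, 1.41-fold lower than in npr-1 animals (-0.50), and the convertase egl-3 itself, with 43.2 FPKM in nfki-1 mutants and 56.5 FPKM in npr-1 animals (-0.39). The dense-core vesicle gene ida-1 (0.06) and unc-31, which encodes the CAPS protein needed for vesicle release (0.22), were not lower. Over the 13 listed members with a ratio, 2 were lower (15.4%, against 4.93% of all genes) and none higher. Of the 13, 5 were above 0 and the median was -0.10, and 1 was lower when genes with shared loci were left out.

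**Figure D2:**
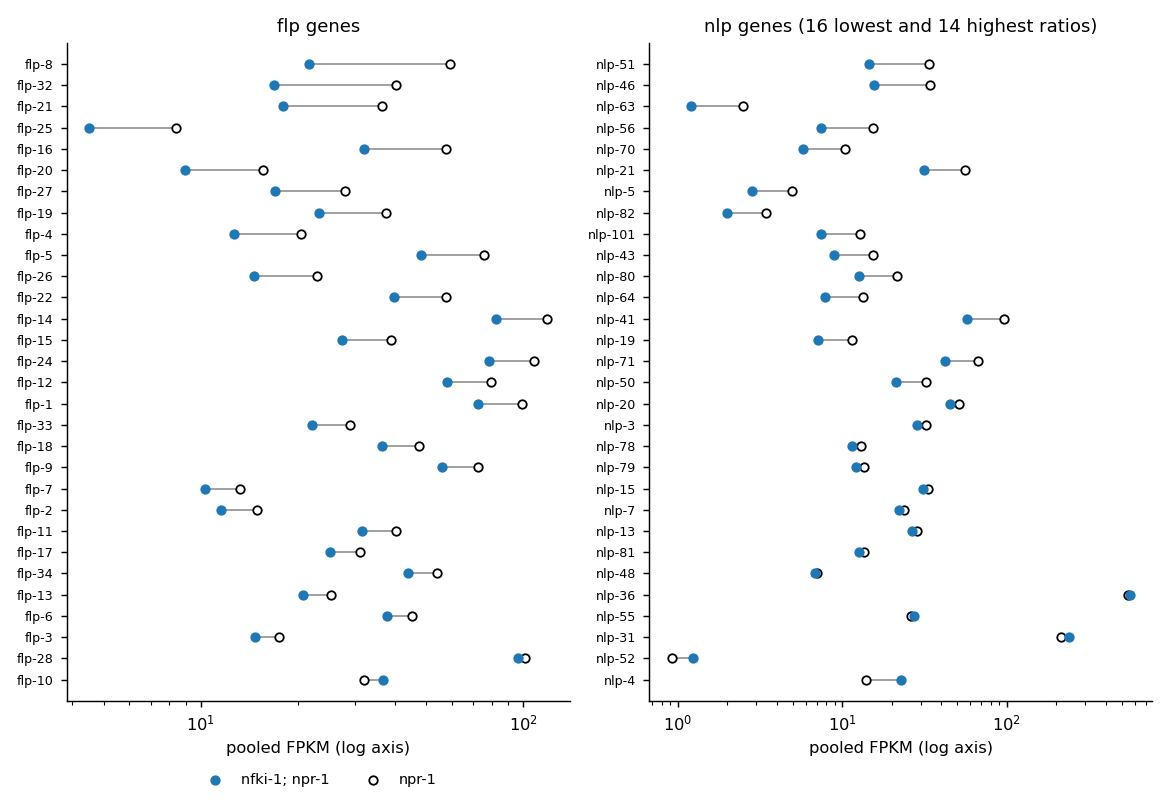
Pooled FPKM on a log axis is plotted for each flp gene (left) and for the nlp genes with the 16 lowest and 14 highest ratios (right), ordered from the lowest ratio at the top. Filled points are nfki-1; npr-1 and open points npr-1, and the filled point lies left of the open one for 29 of 30 flp genes.

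Genes used by all neurons lay on both sides of 0. The 22 pan-neuronal genes, which encode synaptic vesicle and axonal proteins, had a median log2 ratio of 0.02. Of these 0 were 1.5-fold lower and 1 was higher, unc-33, a CRMP-family axon guidance gene, with 29 FPKM in nfki-1 mutants, against 17.7 FPKM in npr-1 animals (0.71), at a deposited locus shared by 4 genes. The lowest was unc-119, 1.28-fold under the 16.3 FPKM of npr-1 animals (-0.35). The synaptobrevin gene snb-1, the most abundant, was at 207 FPKM in nfki-1 mutants and 234 FPKM in npr-1 animals (-0.18). The SNAP-25 gene ric-4 was at 34.6 FPKM in nfki-1 mutants and 42.3 FPKM in npr-1 animals (-0.29), and the vesicle gene rab-3 was at 14.8 FPKM in nfki-1 mutants and 17.7 FPKM in npr-1 animals (-0.26). The 8 neuronal marker genes, which include peptide-processing genes, had 6 below 0 and a median of -0.20. Genes for making and loading classical transmitters had a median of -0.15 over 14 members. The exception was tbh-1, the octopamine-synthesis enzyme, 1.82-fold above the 8.92 FPKM of npr-1 animals (0.86), at a locus shared by 3 genes. Genes of the oxygen-sensing neurons were near the floor. Of 11 listed, 2 were members, and the soluble guanylate cyclase gene gcy-35 had 1.99 FPKM in nfki-1 mutants and 2.42 FPKM in npr-1 animals (-0.28).

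The vitellogenin genes had the highest median of the lists described here. Vitellogenins are yolk lipoproteins that the hermaphrodite intestine secretes and oocytes take up, and their genes switch on around the transition to adulthood. All 6 vit genes were higher in nfki-1 mutants, with log2 ratios between 1.46 and 1.98 and a summed level of 1470 FPKM in nfki-1 mutants, against 470 FPKM in npr-1 animals. The most abundant, vit-6, had 716 FPKM in nfki-1 mutants, against 219 FPKM in npr-1 animals (1.71). The next, vit-2, had 482 FPKM in nfki-1 mutants, against 168 FPKM in npr-1 animals (1.52). Lower in level, vit-5 had 137 FPKM in nfki-1 mutants, against 38.5 FPKM in npr-1 animals (1.83), and vit-1 had 78.8 FPKM, against 28.6 FPKM in npr-1 animals (1.46). The scarcest were vit-3, with 33.2 FPKM in nfki-1 mutants, against 8.45 FPKM in npr-1 animals (1.98), and vit-4, with 22.7 FPKM in nfki-1 mutants, against 6.53 FPKM in npr-1 animals (1.80). Several vit genes are close copies, and how reads were divided among them is not known. Over the 3 with a locus of their own the median was 1.52.

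The genes around yolk differed less. The yolk receptor gene rme-2 had 36.6 FPKM in nfki-1 mutants and 32.7 FPKM in npr-1 animals (log2 ratio 0.16). The microsomal transfer protein gene dsc-4 had 61.6 FPKM in nfki-1 mutants and 67.7 FPKM in npr-1 animals (-0.14). The gene mab-3, a repressor of vit genes in males, had 7.6 FPKM in nfki-1 mutants and 10.6 FPKM in npr-1 animals (-0.48). The listed intestinal genes had a median of -0.11 over 9 members with none past 1.5-fold, and the intestinal GATA factor gene elt-2 was at 20.6 FPKM in nfki-1 mutants and 23 FPKM in npr-1 animals (-0.16). The oocyte and eggshell list had a median of 0.05 over 24 members. Only perm-4, at 274 FPKM in nfki-1 mutants and 151 FPKM in npr-1 animals (0.86), and perm-2, at 243 FPKM in nfki-1 mutants and 136 FPKM in npr-1 animals (0.83), both needed for the eggshell's permeability barrier, were past 1.5-fold there. The lowest were cey-3, at 227 FPKM in nfki-1 mutants and 307 FPKM in npr-1 animals (-0.43), and cey-2, the most abundant, at 436 FPKM in nfki-1 mutants and 552 FPKM in npr-1 animals (-0.34).

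Sperm genes were higher in nfki-1 mutants. Hermaphrodites of this species make sperm during the L4 stage before they switch to oocytes, and spermatogenic cells carry large amounts of a few gene families, with the major sperm proteins (msp), which form the sperm cytoskeleton and signal to oocytes, foremost. All 29 msp genes with a ratio were above 0, with a median log2 ratio of 0.48, and 6 were 1.5-fold or more higher (20.7%, against 13.8% of all genes). Their summed level was 4044 FPKM in nfki-1 mutants, against 2970 FPKM in npr-1 animals. The sperm-specific ssp family had 5 of 11 genes 1.5-fold or more higher (45.5%) and a median of 0.58, and the nematode-specific nspd peptides had 6 of 9 (66.7%) and a median of 0.69. No member of these 3 families was below 0. The gene msp-58, under 1 FPKM in both genotypes and so not a member, had 0.191 FPKM in nfki-1 mutants and 0.415 FPKM in npr-1 animals (-1.12).

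Among the most abundant members, nspd-2 had 754 FPKM in nfki-1 mutants, against 458 FPKM in npr-1 animals (log2 ratio 0.72), and nspd-1 had 707 FPKM, against 486 FPKM in npr-1 animals (0.54). The level of msp-31 was 387 FPKM in nfki-1 mutants and 280 FPKM in npr-1 animals (0.46), and that of msp-40 was 381 FPKM in nfki-1 mutants and 257 FPKM in npr-1 animals (0.57). The msp gene with the largest ratio, msp-79, was scarce, at 2.41 FPKM in nfki-1 mutants and 1.03 FPKM in npr-1 animals (1.23). The abundant msp genes thus lay just under or just over 1.5-fold. Of the ssp genes, ssp-10 had 216 FPKM in nfki-1 mutants and 144 FPKM in npr-1 animals (0.58). The msp genes are near-identical to each other, so values of single members are uncertain.

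Further families were added after their values had been seen. The 29 spe genes, named for defective spermatogenesis, had a median log2 ratio of 0.49, and 13 were 1.5-fold or more higher (44.8%, against 13.8% of all genes) and 0 lower. The paternal factor spe-11 had 79.3 FPKM in nfki-1 mutants, against 42.1 FPKM in npr-1 animals (0.91), and spe-18, at 170 FPKM in nfki-1 mutants, was 1.64-fold above npr-1 animals (0.71). All 4 ssq genes were higher. The level of ssq-1 was 225 FPKM in nfki-1 mutants, against 56.6 FPKM in npr-1 animals (1.99), and that of ssq-2 was 222 FPKM, against 70.1 FPKM in npr-1 animals (1.66). The 3 spch genes, which encode sperm chromatin proteins, were higher as well, and spch-1 had 394 FPKM in nfki-1 mutants, against 250 FPKM in npr-1 animals (0.66). Of 18 nep genes, which encode neprilysin-type peptidases, 11 were higher (61.1%) and 0 lower. The level of nep-17 was 230 FPKM in nfki-1 mutants, against 133 FPKM in npr-1 animals (0.80). Its ratio was 0.60 in malt-1; npr-1 and 0.99 in ilc-17.1; npr-1, where the nep medians were 0.28 and 0.17. Of 8 ttbk genes, which encode tau tubulin kinase relatives, 6 were higher and 0 lower. In the ranking of 142 families, nspd, nep, ttbk and ssp had the 4 highest medians.

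Both listed genes that set sperm fate were lower. The gene fog-3, a Tob-family gene that commits germ cells to sperm, had 11.7 FPKM in nfki-1 mutants, against 25.3 FPKM in npr-1 animals (log2 ratio -1.11). Its partner in that decision, fog-1, an RNA-binding CPEB gene, had 27 FPKM in nfki-1 mutants, against 42.4 FPKM in npr-1 animals (-0.65). The transcription factor gene spe-44, which acts early in spermatogenesis, was at 23.6 FPKM in nfki-1 mutants and 25.2 FPKM in npr-1 animals (-0.09). Genes used in finished sperm were higher, such as spe-38 at 5.51 FPKM in nfki-1 mutants and 3.57 FPKM in npr-1 animals (0.63) and the TRP channel gene spe-41 at 25.4 FPKM in nfki-1 mutants and 16.6 FPKM in npr-1 animals (0.61). The sperm phosphatase genes gsp-3, at 121 FPKM in nfki-1 mutants and 86.7 FPKM in npr-1 animals (0.48), and gsp-4, at 88.9 FPKM in nfki-1 mutants and 66.2 FPKM in npr-1 animals (0.42), were just under 1.5-fold.

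Genes of earlier germ cells were lower by less than 1.5-fold. Germ granules hold the small RNA machinery of the germ line, and 8 of 9 listed germ granule genes were below 0, with a median log2 ratio of -0.39. The helicase gene glh-1 had 194 FPKM in nfki-1 mutants and 265 FPKM in npr-1 animals (-0.44), pgl-1 had 143 FPKM in nfki-1 mutants and 195 FPKM in npr-1 animals (-0.45), and deps-1 had 28.5 FPKM in nfki-1 mutants and 42 FPKM in npr-1 animals (-0.56). The exception was mut-16, at 27 FPKM in nfki-1 mutants and 22.7 FPKM in npr-1 animals (0.25). The meiotic axis and synapsis list had 11 of 13 below 0 and a median of -0.32. Its most abundant member, him-3, had 72.1 FPKM in nfki-1 mutants and 91.3 FPKM in npr-1 animals (-0.34), while the cohesin gene rec-8 had 59.3 FPKM in nfki-1 mutants and 50.5 FPKM in npr-1 animals (0.23).

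The few markers of stage read here differed less than the sperm and yolk genes. Those genes are themselves timed to the L4 stage or the transition to adulthood. The adult collagen genes col-19, at 404 FPKM in nfki-1 mutants and 359 FPKM in npr-1 animals (log2 ratio 0.17), col-7, at 24.3 FPKM in nfki-1 mutants and 21 FPKM in npr-1 animals (0.21), and col-62, at 25.4 FPKM in nfki-1 mutants and 21.4 FPKM in npr-1 animals (0.25), were each slightly higher. The heterochronic gene lin-28, an early larval regulator, was at 34.4 FPKM in nfki-1 mutants and 34.1 FPKM in npr-1 animals (0.01). Of 34 listed molting and cuticle genes 24 were listed at 0 in both genotypes, so they say nothing about the stage of either. Any part of animal age in these results was not tested.

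**Figure D3:**
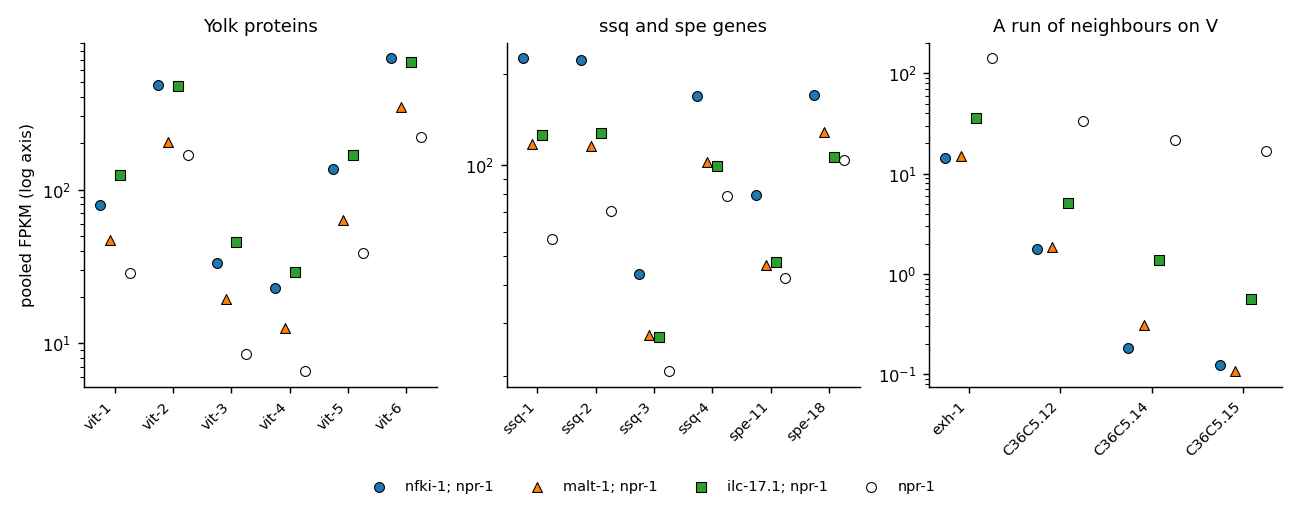
Pooled FPKM on log axes is plotted for the 6 vit genes, for ssq and spe genes and for 4 neighbouring genes on chromosome V, with nfki-1; npr-1 as filled circles, malt-1; npr-1 as triangles, ilc-17.1; npr-1 as squares and npr-1 as open circles. The malt-1 and ilc-17.1 values come from separately scaled comparisons with npr-1. The nfki-1; npr-1 point lies above the npr-1 point for every vit, ssq and spe gene plotted and below it for all 4 neighbours.

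Genes of protein synthesis and turnover were lower by a small and even amount. Of 77 cytosolic ribosomal protein genes, 76 were below 0, with a median log2 ratio of -0.24. Their summed level was 369503 FPKM in nfki-1 mutants, against 433523 FPKM in npr-1 animals. The exception was rpl-42, at 18.4 FPKM in nfki-1 mutants and 10.3 FPKM in npr-1 animals (0.84). The genes rpl-38, at 10583 FPKM in nfki-1 mutants and 12614 FPKM in npr-1 animals (-0.25), and rps-28, at 8392 FPKM in nfki-1 mutants and 10189 FPKM in npr-1 animals (-0.28), were among the 5 largest decreases in FPKM of protein-coding genes, beside C17F4.7, Y82E9BR.3 and Y37E3.8. All 33 proteasome genes were below 0 as well, with ratios between -0.33 and -0.04, and mitochondrial ribosomal genes had medians of -0.21 (mrpl) and -0.22 (mrps). None of the proteasome or mitochondrial ribosomal genes reached 1.5-fold. Of all 13378 genes with a ratio, 6359 were below 0. Abundant genes of any kind leaned lower too. At a mean of 200 FPKM or more the median of all genes was -0.17 and the upper quartile -0.00, and at 50 to 200 FPKM the median was -0.08. The part of level in the small differences of these groups was not tested.

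The 12 protein-coding genes of the mitochondrial genome were all below 0, with a median log2 ratio of -0.51. Of these, 6 were 1.5-fold or more lower (50%, against 4.93% of all genes). The cytochrome oxidase gene COX3 had 1603 FPKM in nfki-1 mutants and 1834 FPKM in npr-1 animals (-0.19). The complex I gene ND1 had 718 FPKM in nfki-1 mutants and 1079 FPKM in npr-1 animals (-0.59), and ND6 had 64.9 FPKM in nfki-1 mutants and 167 FPKM in npr-1 animals (-1.36). Most of these genes share a deposited locus with another, and over the 2 that do not the median was -0.32.

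Genes of central carbon metabolism were mostly below 0 but within 1.5-fold. Of 18 glycolysis genes, 16 were below 0, with a median log2 ratio of -0.31, and 1 was past 1.5-fold, while genes at 200 FPKM or more of any kind had a median of -0.17. That was ldh-1, lactate dehydrogenase, at 130 FPKM in nfki-1 mutants, against 197 FPKM in npr-1 animals (-0.59). The aldolase gene aldo-1 was just inside, at 266 FPKM in nfki-1 mutants and 395 FPKM in npr-1 animals (-0.57), and the most abundant members were aldo-2, at 805 FPKM in nfki-1 mutants and 927 FPKM in npr-1 animals (-0.20), and enol-1, at 743 FPKM in nfki-1 mutants and 923 FPKM in npr-1 animals (-0.31). In the citric acid and glyoxylate list 17 of 20 were below 0. The glyoxylate-cycle gene icl-1, which lets fat carbon be used for sugar, stood apart at 538 FPKM in nfki-1 mutants, against 297 FPKM in npr-1 animals (0.86). Fatty acid synthesis genes had a median of -0.07 over 10 members with none past 1.5-fold, and the synthase genes pod-2 and fasn-1 were listed at 0 in both genotypes.

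Lysosomal and autophagy genes held some of the higher named genes. The lysosomal lipase genes lipl-1, at 6.25 FPKM in nfki-1 mutants and 0.696 FPKM in npr-1 animals (log2 ratio 3.17), and lipl-2, at 5.89 FPKM in nfki-1 mutants and 2.06 FPKM in npr-1 animals (1.51), were higher, whereas lipl-5 was lower, at 127 FPKM in nfki-1 mutants and 267 FPKM in npr-1 animals (-1.07). The gene lipl-1 is a member only through its level in nfki-1 mutants. Of 20 autophagy genes, 3 were higher and 0 lower, a share near that of all genes, and the median was 0.09. Those 3 were atg-9, the membrane protein of forming autophagosomes, at 46.4 FPKM in nfki-1 mutants and 20.6 FPKM in npr-1 animals (1.17), the initiating kinase gene unc-51, at 24.8 FPKM in nfki-1 mutants and 16 FPKM in npr-1 animals (0.64), and hlh-30, the TFEB-like regulator of lysosomal genes, at 69 FPKM in nfki-1 mutants and 45.9 FPKM in npr-1 animals (0.59, at a locus shared by 3 genes). In the TOR and AMPK list, par-4, the LKB1 kinase gene, had 19.9 FPKM in nfki-1 mutants and 10.7 FPKM in npr-1 animals (0.90), and the other 10 were within 1.5-fold. The insulin receptor gene daf-2 (0.07) and the FoxO gene daf-16 (-0.08) were near 0.

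Known targets of the p38 immune pathway were lower, while the kinase cascade itself was not. The p38 cascade controls intestinal defence genes, and its kinase genes nsy-1, sek-1 and pmk-1 had log2 ratios of 0.16, -0.07 and 0.21. Of 10 listed targets with a ratio, 9 were below 0, 5 were 1.5-fold or more lower and 1 was higher, and the median was -0.59. Of all genes 4.93% were lower and 13.8% higher. The level of K08D8.5 was 8.58 FPKM in nfki-1 mutants, against 16.9 FPKM in npr-1 animals (-0.98), and that of C17H12.8 was 86.3 FPKM in nfki-1 mutants, against 146 FPKM in npr-1 animals (-0.76). The lysozyme gene lys-2 had 97.3 FPKM in nfki-1 mutants, against 158 FPKM in npr-1 animals (-0.70), and C32H11.4 had 6.07 FPKM, against 9.89 FPKM in npr-1 animals (-0.70). The single higher target was sysm-1, at 5.5 FPKM in nfki-1 mutants and 3.59 FPKM in npr-1 animals (0.61).

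Other defence families were mixed. Of 83 clec genes, which encode C-type lectin domain proteins, 13 were higher (15.7%, near the 13.8% of all genes) and 17 lower (20.5%, against 4.93% of all genes), with a median log2 ratio of -0.16. At the extremes stood clec-99, at 1.96 FPKM in nfki-1 mutants and 0.388 FPKM in npr-1 animals (2.34), and clec-190, at 0.0594 FPKM in nfki-1 mutants and 1.44 FPKM in npr-1 animals (-4.60). Of these, clec-99 is a member only through its level in nfki-1 mutants and clec-190 only through that in npr-1 animals. The thaumatin-like genes thn-2, at 132 FPKM in nfki-1 mutants and 66.1 FPKM in npr-1 animals (1.00), and thn-1, at 7.2 FPKM in nfki-1 mutants and 2.01 FPKM in npr-1 animals (1.84), were both higher. The invertebrate-type lysozyme gene ilys-3 had 11 FPKM in nfki-1 mutants and 5.36 FPKM in npr-1 animals (1.04). The aspartyl protease genes asp-12, at 103 FPKM in nfki-1 mutants and 214 FPKM in npr-1 animals (-1.05), and asp-17, at 5.4 FPKM in nfki-1 mutants and 13.6 FPKM in npr-1 animals (-1.33), were lower.

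Few stress and oxygen-response genes were past 1.5-fold. The glutathione transferase gene gst-4, a reporter of oxidative stress, had 58.5 FPKM in nfki-1 mutants, against 32.4 FPKM in npr-1 animals (log2 ratio 0.85). The superoxide dismutase gene sod-5 was higher at a low level, 1.55 FPKM in nfki-1 mutants and 0.538 FPKM in npr-1 animals (1.52), and is a member only through its level in nfki-1 mutants. By comparison, sod-1 had 391 FPKM in nfki-1 mutants and 452 FPKM in npr-1 animals (-0.21). Of 9 genes of the HIF-1 and hydrogen sulfide list, sqrd-1, a sulfide-detoxifying oxidoreductase gene, was past 1.5-fold, at 14.8 FPKM in nfki-1 mutants and 24.6 FPKM in npr-1 animals (-0.73), and hif-1 was at 142 FPKM in nfki-1 mutants and 126 FPKM in npr-1 animals (0.17). Heat-shock genes of the hsp family had 0 of 14 past 1.5-fold in either direction.

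Structural genes of muscle were nearly level and collagens mixed. Of 23 muscle filament genes, 0 were past 1.5-fold, with a median log2 ratio of -0.04, from tnt-2 at 627 FPKM in nfki-1 mutants and 853 FPKM in npr-1 animals (-0.44) to tnt-3 at 123 FPKM in nfki-1 mutants and 88.8 FPKM in npr-1 animals (0.47). Of 156 cuticle collagen (col) genes, 79 were listed at 0 in both genotypes and 38 others were under 1 FPKM in both. Among the 39 members, 27 were above 0 and the median was 0.17. The largest gain in absolute FPKM of any protein-coding gene was in col-71, at 2828 FPKM in nfki-1 mutants and 1886 FPKM in npr-1 animals (0.58), just under 1.5-fold, and bli-6, ilys-5, col-38 and col-175 completed the 5 largest gains. The lowest collagen was col-137, at 24.2 FPKM in nfki-1 mutants and 97.8 FPKM in npr-1 animals (-2.01). Both chains of basement membrane collagen IV were higher, let-2 at 446 FPKM in nfki-1 mutants and 187 FPKM in npr-1 animals (1.25, at a locus shared by 5 genes) and emb-9 at 283 FPKM in nfki-1 mutants and 173 FPKM in npr-1 animals (0.71), a pair chosen after its values were seen. Of 34 ttr genes, which encode transthyretin-like secreted proteins, 8 were higher (23.5%, against 13.8% of all genes) and 1 lower, with a median of 0.25 that became 0.10 when members had to reach 5 FPKM, and ttr-14 had 274 FPKM in nfki-1 mutants and 149 FPKM in npr-1 animals (0.88).

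The largest single differences lay outside these groups. Among protein-coding genes at 10 FPKM or more in either genotype, the lowest ratio was that of C36C5.15, at 0.123 FPKM in nfki-1 mutants, against 16.9 FPKM in npr-1 animals (log2 ratio -7.11). Its neighbours on chromosome V were low too. C36C5.14 had 0.181 FPKM in nfki-1 mutants, against 21.7 FPKM in npr-1 animals (-6.91), C36C5.12 had 1.78 FPKM, against 33.3 FPKM in npr-1 animals (-4.23), and exh-1 had 14.3 FPKM, against 141 FPKM in npr-1 animals (-3.30). These 4 genes form a run from 3157077 to 3168750 in the coordinates of the deposited table, whose genome build is not given in the sources used here. C36C5.4 lies between them and was under 1 FPKM in both genotypes, at 0.0316 FPKM in nfki-1 mutants and 0.328 FPKM in npr-1 animals. In the other mutants the same genes were also low, with log2 ratios over npr-1 animals of -7.30, -6.14, -4.15 and -3.23 for C36C5.15, C36C5.14, C36C5.12 and exh-1 in malt-1; npr-1 and of -4.92, -3.97, -2.72 and -1.99 in ilc-17.1; npr-1, and all 3 ratios of a gene share the npr-1 samples. The 1 Mb window around the run, from 3 to 4 Mb on chromosome V, had the highest share of lower genes of 102 windows. There 18 of 89 were lower (20.2%, against 4.93% of all genes), and the genes of the run are among them.

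F59C6.18 on chromosome I had 2.08 FPKM in nfki-1 mutants, against 152 FPKM in npr-1 animals (log2 ratio -6.19), beside -6.23 in malt-1; npr-1 and -3.53 in ilc-17.1; npr-1. W09C2.7 had 0.407 FPKM in nfki-1 mutants, against 18.2 FPKM in npr-1 animals (-5.48), beside -4.58 in malt-1; npr-1 but -0.16 in ilc-17.1; npr-1. The remaining large decreases were in ZK792.12 (-2.11), col-137 (-2.01), C04C3.14 (-2.01) and K09C6.9 (-1.78). The largest decrease in FPKM was in C17F4.7, at 2659 FPKM in nfki-1 mutants, against 5962 FPKM in npr-1 animals (-1.16).

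At the other end, F38C2.1 had 13.9 FPKM in nfki-1 mutants, against 0.157 FPKM in npr-1 animals (log2 ratio 6.47), but its deposited locus is shared by 13 genes and its value is uncertain. The gene lact-6 had 12 FPKM in nfki-1 mutants, against 0.207 FPKM in npr-1 animals (5.85), at a locus shared by 2 genes, and the ratio was 5.86 in malt-1; npr-1. C12D8.21 had 14.2 FPKM in nfki-1 mutants, against 0.435 FPKM in npr-1 animals (5.03), beside 1.55 in malt-1; npr-1 and 0.38 in ilc-17.1; npr-1. More abundant genes included T16G1.7, at 72.4 FPKM in nfki-1 mutants and 8.19 FPKM in npr-1 animals (3.14, at a locus shared by 2 genes), and F42A10.7, at 222 FPKM in nfki-1 mutants and 40.2 FPKM in npr-1 animals (2.46). The others of the 10 largest were Y116A8C.470 (4.08), R09E10.13 (2.67), Y44A6D.1 (2.64), BE0003N10.6 (2.56) and Y105E8A.1 (2.45). Of protein-coding genes listed at 0 in one genotype, an example is B0034.2, at 13.1 FPKM in nfki-1 mutants and listed at 0 in npr-1 animals.

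The groups were also read in the other mutants, whose ratios share the npr-1 samples. The vit genes had a median log2 ratio of 1.75 in nfki-1; npr-1, 0.72 in malt-1; npr-1 and 2.11 in ilc-17.1; npr-1. The flp genes had medians of -0.46, -0.25 and -0.56 in the same order, and the p38 targets -0.59, -0.51 and -0.52. The msp median was 0.48 in nfki-1; npr-1, 0.16 in malt-1; npr-1 and -0.36 in ilc-17.1; npr-1, and the nspd median was 0.69, 0.27 and -0.09. In the direct comparisons of nfki-1 mutants with the other mutants, the msp median was 0.31 over malt-1; npr-1 and 0.85 over ilc-17.1; npr-1. Ribosomal protein genes had medians of -0.24, -0.01 and -0.36 in nfki-1; npr-1, malt-1; npr-1 and ilc-17.1; npr-1.

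**Figure D4:**
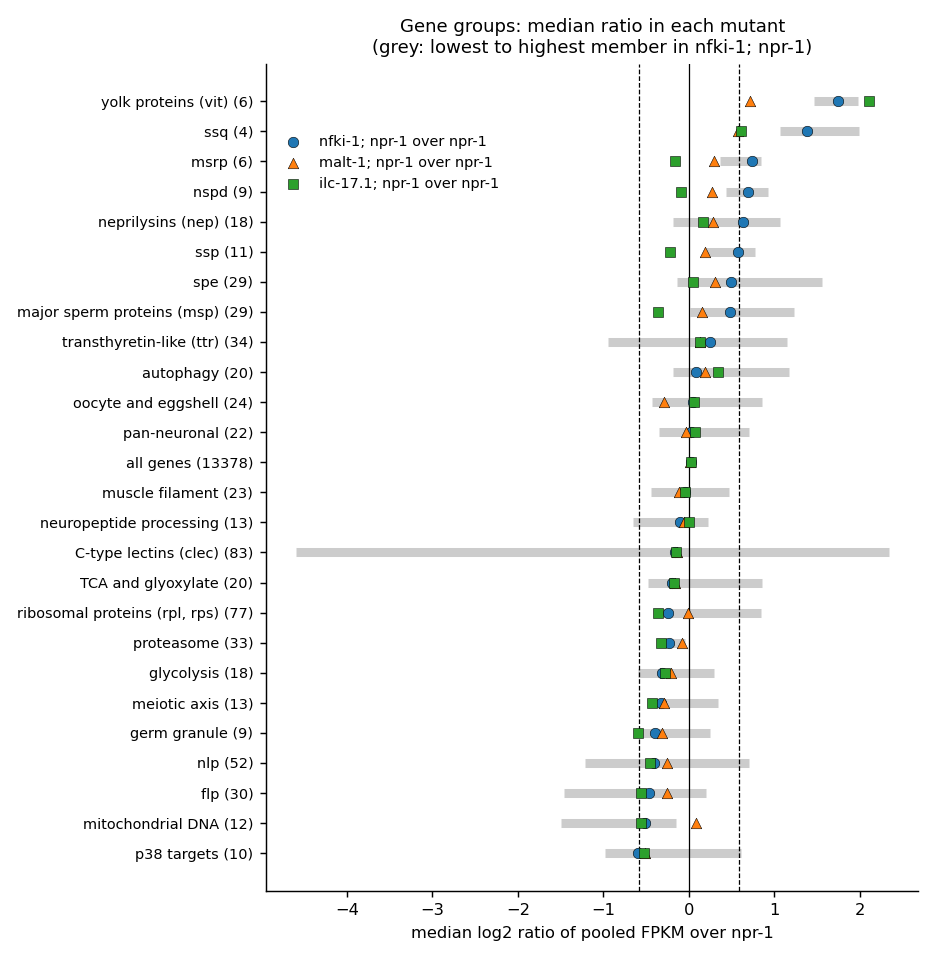
Median log2 ratio over npr-1 for 26 gene groups, with the number of genes with a ratio in brackets, for nfki-1; npr-1 (circles), malt-1; npr-1 (triangles) and ilc-17.1; npr-1 (squares). Grey bars span the lowest to the highest member in nfki-1; npr-1, except for all genes, and dashed lines mark 1.5-fold. The vit group lies furthest right for nfki-1; npr-1, at 1.75, and the p38 targets furthest left, at -0.59.

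Of the higher genes, 320 were 1.5-fold or more higher in nfki-1 mutants than in npr-1 animals and than in each of the other mutants, 17.3% of the 1849, and 93 were lower in all 3, 14.1% of the 659. These 3 comparisons share the nfki-1 samples. The higher set holds ssq-1, ssq-2, ssq-4, spe-11, nspd-10 and msp-51 of the sperm families, the transthyretin-like gene ttr-14 and the collagen gene col-88, at 889 FPKM in nfki-1 mutants and 586 FPKM in npr-1 animals (log2 ratio 0.60). Most genes of the msp, ssp, nspd and spe families are not in this set. The lower set has 7 protein-coding genes at 10 FPKM or more, among them nfki-1, C36C5.14, W09C2.7 and W05E10.5. For W05E10.5 the level was 10.2 FPKM in nfki-1 mutants and 29 FPKM in npr-1 animals (-1.51), whereas its ratio was 0.28 in malt-1; npr-1 and 0.92 in ilc-17.1; npr-1. These genes were chosen after their values were seen.

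By position, among the nuclear chromosomes, chromosome IV had the highest share of higher genes, 410 of 2346 (17.5%), and chromosome X the lowest, 177 of 1791 (9.88%). Lower genes were most frequent on chromosome V, 195 of 2495 (7.82%), and least on chromosome I, 64 of 2338 (2.74%). The window of nfki-1, from 15 to 16 Mb on chromosome X, had 13 higher and 7 lower of 100 genes, ranks of 50 and 24 among 102 windows. Of all genes, 13.8% were higher and 4.93% lower. The windows with the largest shares of higher genes were 2 to 3 Mb on chromosome II, 36 of 124 (29%), and 5 to 6 Mb on chromosome IV, 41 of 152 (27%). The window on chromosome IV holds nspd-3, nspd-6, msp-51 and msp-113. Runs of 3 or more neighbouring protein-coding genes on the same side of 1.5-fold numbered 62 for higher genes and 9 for lower genes. The longest, of 7 genes on chromosome IV from 4977096 to 5017741, held ssq-2, ssq-4 and both genes named ssp-9.

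**Figure D5:**
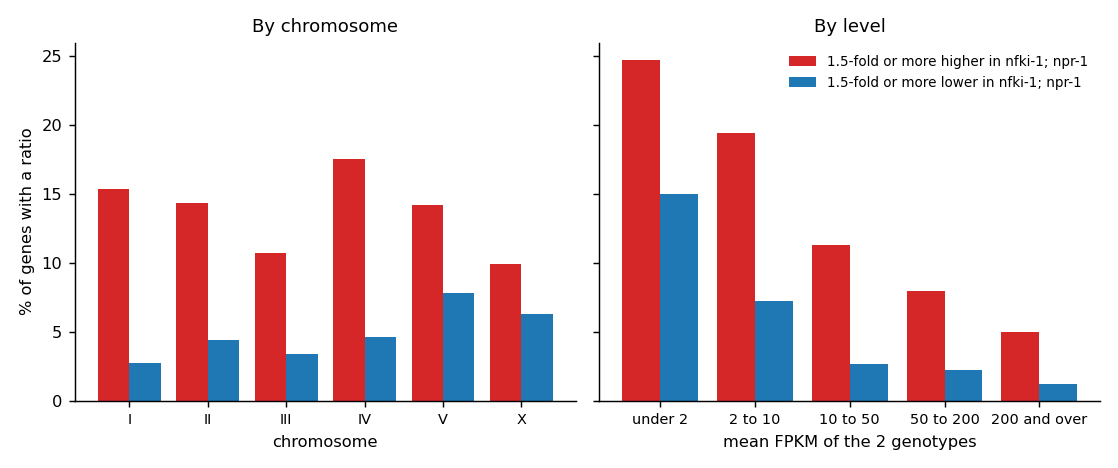
Bars give the percentage of genes with a ratio that were 1.5-fold or more higher (red) or lower (blue) in nfki-1; npr-1 than in npr-1, by chromosome (left) and by mean FPKM of both genotypes (right), on an axis from 0. Among the 6 nuclear chromosomes, higher genes range from 9.88% on X to 17.5% on IV, and both shares decline with level.

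The share past 1.5-fold depended on level. Under a mean of 2 FPKM, 24.7% of 1346 genes were higher and 15% lower, whereas at 200 FPKM or more 4.96% of 826 were higher and 1.21% lower. The median log2 ratio went with level too, at 0.11 under 2 FPKM and -0.17 at 200 FPKM or more. Transcript length also went with the ratio. In the shortest quartile of protein-coding genes, with a longest annotated transcript of up to 828 bases, 19.1% were higher, 8.56% lower and the median was -0.08, and in the longest quartile, over 2006 bases, 6.97% were higher, 0.737% lower and the median was 0.10. The part of length in the lower ratios of the short neuropeptide and ribosomal protein genes was not tested. Among other gene types, 152 of 497 pseudogenes were higher (30.6%) and 27 lower (5.43%), with a median of 0.37. Of 570 non-coding RNA genes with a ratio, 215 were higher (37.7%) and 102 lower (17.9%), with a median of 0.33. Over all genes the shares were 13.8% and 4.93%. Of the 1015 non-coding RNA members, 208 were listed at 0 in nfki-1 mutants and 237 at 0 in npr-1 animals. Ratios of this type reached 18.08, so they are uncertain.

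As a check of the labelled material, 8 of 8 neuronal, 4 of 4 body wall muscle, 4 of 4 germ line, 4 of 4 sperm and 5 of 5 oocyte marker genes were members, as were 5 of 7 intestinal ones. Pharyngeal markers were members in 1 of 4 cases and hypodermal markers in 0 of 5, and 3 markers of each of these tissues were listed at 0 in both genotypes. The summed sperm markers were at 347 FPKM in nfki-1 mutants and 253 FPKM in npr-1 animals, the germ line markers at 588 FPKM in nfki-1 mutants and 741 FPKM in npr-1 animals, and the neuronal markers at 310 FPKM in nfki-1 mutants and 375 FPKM in npr-1 animals. A share of these tissues in the whole-animal RNA that differed between genotypes was not tested as a part of the results above.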

How the data were processed

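The authors made stranded polyA libraries, trimmed reads with Trim Galore 0.4.3, aligned them with TopHat2 2.1.0 and quantified with Cufflinks 2.2.1 and Cuffdiff, per the labels. The genome build is not given in the sources used here. The deposited table holds 1 pooled FPKM per genotype and comparison, normalised within each comparison. It has 0 columns of single-sample values, so no test, SD or depth could be computed, and the 18 samples of a genotype could not be used as replicates. The table also holds the authors' fold changes, test statistics, p-values and q-values, which were not used.

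Ratios, medians and counts were computed with pandas 2.3.3 and numpy 2.4.6 in Python, with at least 1 FPKM in either genotype and 1.5-fold as thresholds, and the counting was tested on simulated data. Gene names and types come from the WBcel235 annotation, which holds 46059 of the 46624 gene IDs. Named genes were the pathway genes, in each list longer than 5 up to 4 with the largest ratios in each direction and the 3 most abundant, the 10 largest ratios in each direction at 10 FPKM or more, the 5 largest FPKM differences in each direction, and runs of 3 neighbours. The genes flp-18, rme-2, vit-1, ND1, daf-2, nspd-3, B0034.2 and C33A11.5 fall outside this rule and were named after their values were seen. Members and lists were chosen with earlier results of these data known. No reference sequences were used here.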

Additional observations from a re-analysis of the deposited data

How the results depend on the processing

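No paired analysis was possible because the deposited table holds 1 pooled FPKM per genotype, and leaving out replicates or adding a replicate block could not be run for the same reason. The counts of higher and lower genes depended on the thresholds. Without a minimum FPKM 3110 genes were higher and 1706 lower, with shared loci left out 1230 were higher and 405 lower, and at 5 FPKM in either genotype 348 were lower. At a log2 ratio of 0.25 the counts were 3814 higher and 2497 lower, and at 2-fold 562 and 270. Among 24 lists, the median log2 ratio moved by 0.1 or more for the ins genes, to -0.25 with at least 1 FPKM in both genotypes, to -0.25 with at least 5 FPKM in either and to 0.10 without a minimum, for the vit genes to 1.52 and the mitochondrial DNA genes to -0.32 with shared loci left out, and for the ttr genes to 0.10 at 5 FPKM. In the window of nfki-1 the count of higher genes was 6 at 5 FPKM, 23 without a minimum and 7 without shared loci, and that of lower genes was 12 without a minimum and 2 without shared loci. A pseudocount of 1 moved 45 of 290 single genes by 0.1 or more. Ratios taken through malt-1; npr-1 or ilc-17.1; npr-1 come from the same pooled samples, so their closeness to the direct ratio is no check. Of the list medians, that of the ins genes changed sign without a minimum, and that of the pan-neuronal genes was -0.04 with shared loci left out, against 0.02 with them. Restricting the counts to protein-coding genes, an alternative chosen after seeing the data, gave 1382 higher and 488 lower.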
